A study of Mus musculus with 2 samples.

Results

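Aerocytes are the capillary endothelial cells of the gas-exchange surface that carry Car4 and Ednrb, and here they were cells of mouse lung defined by their own counts. A member had at least 3 UMIs (unique molecular identifiers, counted mRNA molecules) of Cdh5, Pecam1 and Egfl7 together, at least 3 of Car4 and Ednrb together, and more of Car4 and Ednrb than of Gpihbp1 and Plvap. It had no UMI of Epcam, Ptprc or Dcn, at least 200 genes and at most 10% mitochondrial UMIs. Its stromal share, the share of UMIs from Pdgfra, Dcn, Mfap4 and the collagen genes Col1a1, Col1a2 and Col3a1, lay under 0.1%. Library 1 held 11 members of 9634 cells kept and library 2 held 88 of 9988, so 99 of 19622 in all. These 15 genes chose the members and the cells they were compared with, and they are given as a description without a test.

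The lungs came from male wild-type C57BL/6 mice aged 3 months. Cells were sorted on the ultraviolet fluorescence of the retinoids they held, a gate meant for retinoid-storing cells. The libraries were mostly fibroblasts and the aerocytes a small remainder, with no unsorted cells to compare. Both libraries were 10x Genomics 3′ single-cell libraries made on separate occasions, and how many mice fed each was not stated. Lung capillaries consist of aerocytes, large thin cells that lie against type 1 epithelium, and of general capillary cells, which renew the endothelium and secrete much of its signalling. Car4 is a carbonic anhydrase on the cell surface that speeds the exchange of carbon dioxide, and Ednrb is a receptor that binds and clears endothelin. Gpihbp1, which carries lipoprotein lipase to the vessel lumen, and Plvap, a component of endothelial diaphragms, belong to general capillary cells.

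The libraries stood apart in depth and in what passed the gate. Library 1 had 9669 barcodes and 48762735 UMIs, library 2 had 10050 barcodes and 93970185 UMIs, and the median kept cell had 4480.0 and 7577.5 UMIs. Of the barcodes, 23 occurred in both libraries and 0 of them were members. Members made up 0.114% of the cells kept in library 1 (exact 95% interval 0.0570–0.204%) and 0.881% in library 2 (0.707–1.08%), and 0.505% of both (0.410–0.614%). The median member had 2498 UMIs and 1409 genes in library 1 and 8383.5 UMIs and 3140.5 genes in library 2, with 0.909% and 2.09% mitochondrial UMIs. Among all cells of both capillary gates, members were 21.2% in library 1 (11 of 52; 11.1–34.7%) and 20.9% in library 2 (88 of 422; 17.1–25.05%). The gate for general capillary cells held 41 and 334 cells, at medians of 1876 and 4977.5 UMIs. Left out of this split, at a stromal share of 0.1% or more, were 60 and 583 general capillary-gated and 1 and 88 aerocyte-gated cells. Fibroblast-gated cells numbered 7718 and 7042, at medians of 4270.0 and 7048 UMIs. With each cell thinned to 2000 UMIs, members were 0.118% of cells in library 1 (0.0566–0.217%) and 0.755% in library 2 (0.593–0.947%). The cause of the differences between libraries was not tested. The occasion and any difference in animals cannot be told apart, and the libraries also differed in depth, so each value is given per library.

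The genes of the gate had these levels in the members. Car4 was counted in 11 of 11 members of library 1, with a median of 12 UMIs (3 to 21), and in 87 of 88 of library 2, with a median of 17 (0 to 48). Ednrb was counted in 11 of 11 (median 3, 1 to 6) and in 84 of 88 (median 8, 0 to 25). Cdh5, the cadherin of endothelial junctions, had 76 UMIs in the members of library 1 and 1762 in those of library 2. Pecam1, an adhesion protein between endothelial cells, had 35 and 1061 UMIs, and Egfl7, a secreted endothelial protein, had 81 and 1852. The stromal genes together had 1 UMI in the members of library 1 and 271 in those of library 2. The genes of the other gate differed between the libraries as well. Gpihbp1 had 3 UMIs in 2 of 11 members of library 1 but 491 UMIs in 66 of 88 members of library 2. Plvap had 0 UMIs in 11 members of library 1 and 281 UMIs in 51 of 88 members of library 2.

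**Figure D1:**
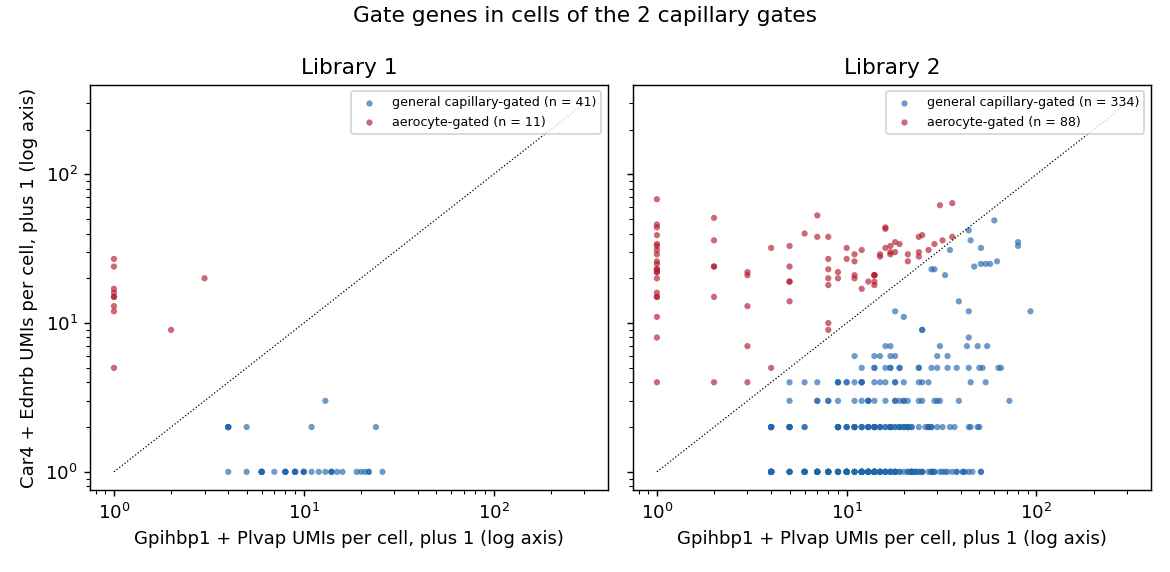
UMIs of Car4 with Ednrb against UMIs of Gpihbp1 with Plvap in the cells of both capillary gates, by library. Members lie where the first sum is the larger.

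All cells next to a threshold were in library 2. There, 3 members had exactly 3 UMIs of Car4 and Ednrb, and 2 cells had 2 and were left outside (median 1891 and 1105 UMIs in the cell). Just under the stromal limit were 7 members with shares of 0.08 to 0.1%, and just over it 6 cells up to 0.12%, with 11467 and 19919.5 median UMIs. Gpihbp1 and Plvap made up 40% to under 50% of the 4 capillary gate genes in 16 members, and 50 to 60% in 7 cells outside, with 9940.5 and 18056 median UMIs.

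Kdr, Cldn5 and Icam2 are the markers of these cells that the gate did not use. Kdr (ENSMUSG00000062960, chromosome 5, 75932827 to 75978458, minus strand), the main receptor for vascular endothelial growth factor A, was counted in 11 of 11 members of library 1 and in 82 of 88 of library 2 (93.2%, 85.7–97.5%; 90.7% with each cell thinned to 2000 UMIs). Fibroblast-gated cells at medians of 4270.0 and 7048 UMIs held Kdr in 0.155% and 1.21%. Cldn5, the tight-junction claudin of endothelium, was counted in 11 of 11 and 88 of 88 members (100.0% thinned in library 2), and in 0.272% and 2.27% of fibroblast-gated cells. Icam2, an endothelial ligand of leukocyte integrins, was counted in 11 of 11 and 88 of 88 members (96.5% thinned), against 0.0907% and 0.596% of fibroblast-gated cells. Near every member therefore held all 3 markers while few fibroblast-gated cells held any. The gate asked members for UMIs of 3 other endothelial genes and fibroblast-gated cells for none, so part of this split was set by the rule.

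As CPM (the UMIs of a gene scaled to a total of 1000000), Kdr stood at 2079.9 and 1296 in the members of libraries 1 and 2, at 285 and 317 in general capillary-gated cells and at 0.407 and 1.85 in fibroblast-gated cells. Icam2 stood at 2957 and 1758, 737 and 629.6, and 0.233 and 0.833 CPM in the same order. Cldn5 stood at 8515 and 5162, 3933 and 2963, and 0.698 and 3.06 CPM. Kdr and Icam2 were thus higher in members than in both other groups in 2 of 2 libraries. Cldn5 separated both endothelial groups from fibroblasts, and its difference between members and general capillary cells was not a call.

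**Figure D2:**
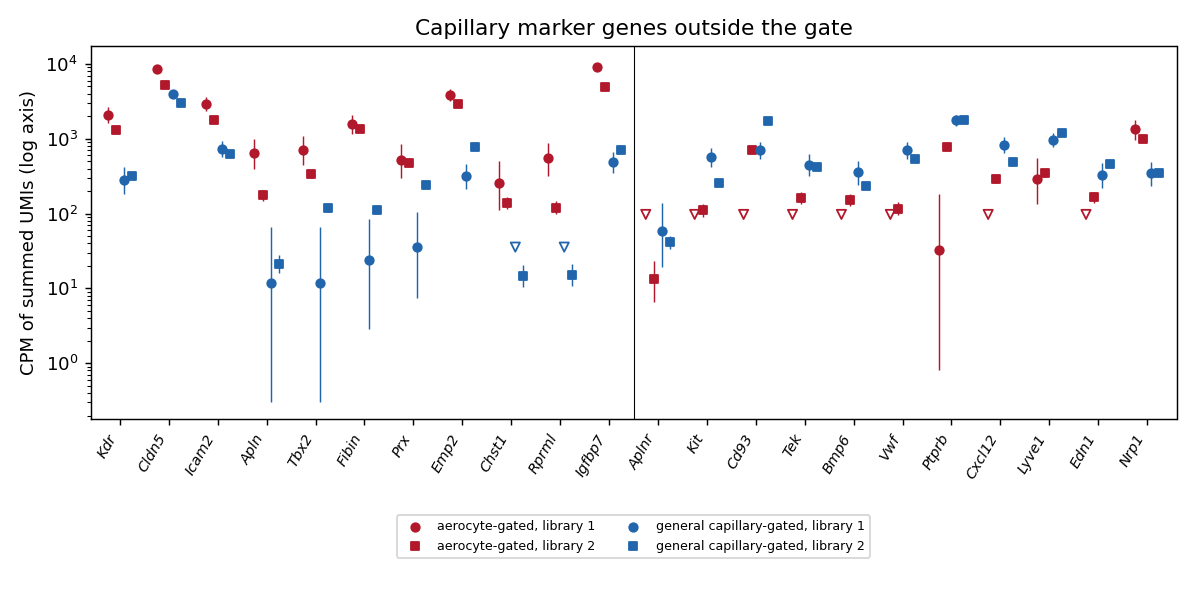
Levels of aerocyte and general capillary markers outside the gate in members and general capillary-gated cells, by library. Bars are counting intervals and open triangles mark the floor of 3 UMIs where a gene had none.

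Aerocytes and general capillary cells share an endothelial program and differ in what they receive and send. Aerocytes lie close to the epithelium, carry the receptor for its growth factor and make apelin, whose receptor sits on general capillary cells. With edgeR's quasi-likelihood test and Benjamini-Hochberg adjustment, 10402 genes were tested between members and general capillary-gated cells. Of these, 111 were higher in members (1.07%) and 154 lower (1.48%), with a median log2 difference of −0.18 over all genes. With DESeq2 28 were higher and 5 lower, all of them also called by edgeR. The adjusted p values measure the spread between these 2 libraries only, as nothing says that the libraries were separate animals, and intervals of folds cover counting error only.

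Genes with the largest differences were read with their levels. Fibin (ENSMUSG00000074971, chromosome 2, 110360917 to 110363183, minus strand), a secreted factor first described in fin bud initiation, stood at 1559.96 and 1369 CPM in members and 23.8 and 110.5 in general capillary-gated cells. AW112010 (ENSMUSG00000075010, chromosome 19, 11047612 to 11055808, minus strand), a long non-coding RNA, stood at 2632 and 901 against 23.8 and 90.8. Igfbp7 (ENSMUSG00000036256, chromosome 5, 77349240 to 77408041, minus strand), a secreted binding protein of insulin-like growth factors found in vascular matrix, stood at 9197 and 4977 against 487 and 712. All 3 were high in members and low in general capillary cells in both libraries. Fibin was 65.6-fold higher in library 1 (17.2–558) and 12.4-fold higher in library 2 (10.9–14.2), a fitted log2 difference of 3.95 ± 0.42 (adjusted p = 1.96e-17). AW112010 was 111-fold (29.7–930.1) and 9.92-fold (8.54–11.6) higher, fitted at 3.91 ± 0.41 (adjusted p = 1.17e-18). Igfbp7 was 18.9-fold (13.6–26.9) and 6.99-fold (6.61–7.395) higher, fitted at 3.15 ± 0.40 (adjusted p = 3.48e-12).

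Apln (ENSMUSG00000037010, chromosome X, 48025146 to 48034853, minus strand) encodes apelin, the peptide that aerocytes are known to send. Its level was 649.98 and 175 CPM in members and 11.9 and 21.3 in general capillary-gated cells. Apelin transcripts were thus 54.7-fold (8.75–2267) and 8.23-fold (5.97–11.5) higher in members, fitted at 3.18 ± 0.41 (adjusted p = 8.12e-12). At least 1 UMI of Apln was in 8 of 11 members of library 1 and 61 of 88 of library 2 (69.3%, 58.6–78.7%), or 25.6% thinned, against 0.0907% and 0.0568% of fibroblast-gated cells. The receptor gene Aplnr stood at 0 and 13.2 CPM in members and 59.4 and 41.8 in general capillary-gated cells, and did not pass (adjusted p = 0.0561).

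Smaller transcripts with the largest differences follow. Rprml, a relative of the growth-arrest gene reprimo, stood at 552 and 119.97 CPM in members against 0 and 15.3, at least 15.5-fold higher in library 1 and 7.86-fold (5.36–11.7) in library 2. Cdkn2b, an inhibitor of the cyclin D kinases, stood at 519.99 and 89.97 against 0 and 12.9, at least 14.6-fold and 6.998-fold (4.57–10.9) higher. Chst1, a sulfotransferase that modifies keratan sulfate, stood at 259.99 and 138 against 0 and 14.9, at least 7.29-fold and 9.28-fold (6.36–13.8) higher. All 3 had 0 UMIs in general capillary-gated cells of library 1 and were low in those of library 2. As 1 UMI is 11.9 CPM in those cells of library 1, the 0 does not show a level under that of library 2. Ccdc68, a protein of the centriole, stood at 259.99 and 205 CPM against 23.8 and 25.3, 10.9-fold (2.18–106) and 8.105-fold (6.04–10.999) higher. The coiled-coil gene Ccdc184 stood at 129.997 and 132 against 0 and 8.84, at least 3.65-fold and 14.9-fold (9.38–24.8) higher. Ccdc68 and Ccdc184 were likewise high in members and low in general capillary-gated cells. Dpysl5, a cytoskeletal protein known from axon guidance, stood at 97.5 CPM in members of library 1, which is no more than the floor of 3 UMIs (97.5 CPM), and at 59.98 against 4.82 in library 2. Tmeff2, a membrane protein with follistatin-like domains, and 2610203C22Rik, an untranslated transcript, stood at 129.997 and 82.8 and at 162 and 55.2 CPM in members. Both had 0 UMIs in general capillary-gated cells of library 1 and stood at 11.7 and 8.84 CPM in those of library 2. These 8 genes passed with edgeR at adjusted p from 1.56e-09 for Chst1 to 5.29e-04 for 2610203C22Rik, and Tmeff2 and 2610203C22Rik did not pass with DESeq2.

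Promoters of Kdr, Fibin and Apln were read for an exact ETS string (CCGGAA, reverse TTCCGG) and an exact T-box string (GGTGTG, reverse CACACC). ETS factors act across endothelium, and the T-box genes Tbx2 and Tbx3 were higher in members. Each string is 1 form of the sites that such factors bind. Shorter and other forms were not counted, so a promoter without the string can still hold a site. Each promoter was 300 bases long, 250 before the transcription start and 50 after it. It was taken from RefSeq on the strand of the gene in GRCm38.p6, with the strings in capitals. Kdr (chromosome 5, 75978406 to 75978705, minus strand) had 1 ETS string and Fibin (chromosome 2, 110362944 to 110363243, minus strand) had 1 T-box string. Apln (chromosome X, 48034804 to 48035103, minus strand) had neither string. Of the 12 genes with the largest differences, 10 had a promoter in the annotation, 0 of them with the ETS string and 1, Fibin, with the T-box string. Of all 32851 promoters, 14.9% had the ETS string and 19.0% the T-box string. This is a description of sequence and no test of binding was made.

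Kdr: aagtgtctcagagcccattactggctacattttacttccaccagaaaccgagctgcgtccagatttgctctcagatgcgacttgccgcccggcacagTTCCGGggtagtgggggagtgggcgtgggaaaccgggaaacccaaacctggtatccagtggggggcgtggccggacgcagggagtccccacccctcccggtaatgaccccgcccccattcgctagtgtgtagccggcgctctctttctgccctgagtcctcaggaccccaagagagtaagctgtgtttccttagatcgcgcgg

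Fibin: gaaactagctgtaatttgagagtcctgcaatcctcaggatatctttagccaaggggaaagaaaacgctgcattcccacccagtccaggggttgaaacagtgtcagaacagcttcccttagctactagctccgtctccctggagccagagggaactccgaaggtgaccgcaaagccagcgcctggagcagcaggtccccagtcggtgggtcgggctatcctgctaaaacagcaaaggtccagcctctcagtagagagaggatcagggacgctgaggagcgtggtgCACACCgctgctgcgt

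Apln: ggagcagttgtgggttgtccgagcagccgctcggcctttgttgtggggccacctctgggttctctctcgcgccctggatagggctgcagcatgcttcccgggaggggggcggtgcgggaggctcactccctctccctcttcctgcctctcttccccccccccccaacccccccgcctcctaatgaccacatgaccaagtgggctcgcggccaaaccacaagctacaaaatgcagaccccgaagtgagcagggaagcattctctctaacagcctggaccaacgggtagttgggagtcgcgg

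Of 16 aerocyte markers outside the gate, 16 were tested, and 12 were higher, 0 lower and 4 not passed in the edgeR test, with a median log2 difference of 2.08 beside −0.18 over all genes, of which 1.07% were higher and 1.48% lower. The list was chosen with earlier results of these data known, so these counts are no independent check of the name. The summed level of the aerocyte markers was 34579 and 21067 CPM in members of libraries 1 and 2 and 7213 and 7092 CPM in general capillary-gated cells. Emp2, a membrane protein of thin alveolar cells that tunes integrins and caveolin, stood at 3835 and 2951 CPM in members against 321 and 767, 11.95-fold (7.81–18.9) and 3.85-fold (3.62–4.09) higher, fitted at 2.29 ± 0.38 (adjusted p = 5.14e-07). Kdr was 7.29-fold (4.498–12.2) and 4.09-fold (3.73–4.49) higher, fitted at 2.20 ± 0.38 (adjusted p = 3.11e-06). Icam2 was 4.01-fold (2.88–5.64) and 2.79-fold (2.598–2.9995) higher, fitted at 1.47 ± 0.37 (adjusted p = 0.00444). Emp2, Kdr and Icam2 were thus high in members of both libraries. Cldn5, fitted at 0.68 ± 0.37 (adjusted p = 0.567), did not pass. In members, Cyp4b1, a cytochrome P450 of lung, stood at 2015 and 1116 CPM, Prx, a scaffold protein of the submembrane, at 519.99 and 473, and Sirpa, the receptor for CD47, at 162 and 46.8. General capillary-gated cells had 547 and 377, 35.7 and 239, and 0 and 7.23 CPM of the same genes, so all 3 were the higher in members in 2 of 2 libraries. Fendrr, Nkd1 and Nostrin did not pass. With DESeq2, Kdr, Icam2, Tbx2, Prx, Cyp4b1 and Sirpa did not pass, while Fibin, Apln, Igfbp7, Chst1, Rprml and Emp2 did.

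General capillary cells make the ligands and receptors that keep the capillary bed in repair, among them Kit and Tek. Of 16 general capillary markers outside the gate, 16 were tested, and 1 was higher in members, 11 lower and 4 not passed, with a median log2 difference of −1.79 beside −0.18 over all genes, of which 1.07% were higher and 1.48% lower. This list too was chosen with earlier results known, and its counts are no independent check. Summed, the general capillary markers stood at 3542 and 6750.5 CPM in members and 11229.9 and 11659 CPM in general capillary-gated cells, and 9 of the 16 had 0 UMIs in members of library 1. Vwf, the clotting factor stored in endothelial granules, stood at 0 and 116 CPM in members against 713 and 539.6. Kit, the receptor of stem cell factor, stood at 0 and 110.4 against 570.4 and 257, and Cd93, a lectin-like receptor of angiogenesis, at 0 and 711 against 713 and 1737. Vwf, Kit and Cd93 had no UMI in library 1 members and a lower level in library 2 members than in the general capillary-gated cells beside them. Vwf is also made in larger vessels, and whether vein cells in the gate gave its level was not tested. With the floor of 3 UMIs, Vwf was at least 7.31-fold lower in library 1 and 4.64-fold (3.77–5.76) lower in library 2, at a fitted log2 difference of −2.91 ± 0.41 (adjusted p = 1.34e-09). Kit was at least 5.85-fold and 2.33-fold (1.87–2.93) lower, fitted at −2.00 ± 0.39 (adjusted p = 4.45e-05), and Cd93 at least 7.31-fold and 2.44-fold (2.24–2.66) lower, fitted at −2.05 ± 0.41 (adjusted p = 8.15e-05). For each of the 3 the fall was larger in library 1 than in library 2. At least 1 UMI of Cd93 was in 0 of 11 members of library 1 (exact 95% interval 0–28.5%, at a median of 2498 UMIs) and in 57 of 88 of library 2 (64.8%; 45.3% thinned). The same share for Kit was 0 of 11 and 39 of 88 (44.3%; 19.8% thinned). Fibroblast-gated cells held Cd93 in 0.233% and 1.69% and Kit in 0.0777% and 0.298%.

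Other general capillary genes had the same direction. Ptprb, the phosphatase that restrains Tek signalling, stood at 32.5 and 770.2 CPM in members against 1771 and 1776, 54.5-fold (9.63–2166.2) and 2.31-fold (2.12–2.51) lower. Tek, the angiopoietin receptor, stood at 0 and 162 against 452 and 415, at least 4.63-fold and 2.56-fold (2.14–3.09) lower. Lyve1, a hyaluronan receptor, stood at 292 and 348 against 974 and 1179, 3.33-fold (1.67–7.54) and 3.39-fold (3.003–3.84) lower. The 3 were lower in members in 2 of 2 libraries, and the fall of Ptprb in library 1 was much the larger. Glp1r, the receptor of an incretin peptide, stood at 0 and 124 against 321 and 269.6, at least 3.29-fold and 2.18-fold (1.77–2.71) lower. Itga1, a collagen-binding integrin chain, stood at 357 and 553 against 915 and 949, fitted at −1.22 ± 0.38 (adjusted p = 0.0476). Nrp1, a coreceptor for growth factors and semaphorins, was the marker of this list that was higher in members, at 1332 and 995 against 345 and 353 CPM (fitted 1.43 ± 0.37, adjusted p = 0.00813). Aplnr, Hilpda, Sema3c and Tspan7 did not pass, and with DESeq2 only Vwf, Lyve1 and Nrp1 of this list passed.

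Further genes with the largest falls were of mixed kinds. Slc6a2, the noradrenaline transporter and a gene of pulmonary veins, stood at 0 and 8.398 CPM in members against 107 and 163, at least 1.097-fold and 19.4-fold (9.34–48.6) lower. Prss23, a serine protease, stood at 0 and 57.6 against 261 and 306, at least 2.68-fold and 5.31-fold (3.96–7.27) lower. Lbp, which binds bacterial lipopolysaccharide, stood at 0 and 20.4 against 143 and 109.7, at least 1.46-fold and 5.38-fold (3.298–9.37) lower. All 3 were at 0 in members of library 1 and low in those of library 2. Iigp1, an interferon-induced GTPase, stood at 0 and 65.98 against 737 and 213, at least 7.56-fold and 3.23-fold (2.45–4.35) lower. Tmem252, a small membrane protein, stood at 0 and 99.6 against 677 and 403, and Ctsc, a lysosomal protease, at 0 and 11.997 against 71.3 and 56.2 CPM. Tmem252 was at least 6.95-fold and 4.05-fold (3.23–5.13) lower, and Ctsc 4.69-fold (2.48–9.99) lower in library 2. With DESeq2 Slc6a2 passed and the other 5 did not.

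Vein cells that carry Gpihbp1 or Plvap can pass the general capillary gate, so markers of larger vessels were read too. Of 16 arterial, venous and lymphatic markers 9 were tested, and 0 were higher, 4 lower (Gja4, Hey1, Slc6a2 and Nr2f2) and 5 not passed in the edgeR test, with a median of −1.54 beside −0.18, and 1.07% higher and 1.48% lower over all genes. Gja4, a connexin of arteries, stood at 0 and 62.4 CPM in members against 463 and 159.9, and Nr2f2, the transcription factor of veins, at 0 and 34.8 against 11.9 and 117. Gja4, Hey1 and Nr2f2 did not pass with DESeq2. General capillary-gated cells with no UMI of Vwf, Slc6a2, Mmrn1, Prox1 or Ccl21a numbered 26 and 162. Against those cells, 95 genes were higher in members and 67 lower of 9028 tested.

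Growth factors and their receptors divide between the capillary cells, with the VEGF receptor on aerocytes and much of the ligand made elsewhere. Of 10 VEGF genes 9 were tested, with 2 higher (Kdr, Nrp1), 2 lower (Vegfa, Vegfc) and 5 not passed, and a median of −0.85, beside 1.07% higher and 1.48% lower over all genes (median −0.18). Vegfa, the chief ligand of Kdr, stood at 0 and 156 CPM in members against 559 and 291, and Vegfc, the lymphatic ligand, at 0 and 21.6 against 47.5 and 67.9. Flt1, a receptor that also traps the ligand, stood at 519.99 and 678 against 689 and 768 and did not pass. Members were therefore high in Kdr and low in Vegfa, which was at least 5.73-fold lower in library 1 and 1.87-fold (1.55–2.27) in library 2 (fitted −1.53 ± 0.38, adjusted p = 0.00395). Of 10 apelin and endothelin genes 6 were tested, with 1 higher (Apln), 1 lower (Edn1) and 4 not passed, and a median of −0.66. Edn1, the vasoconstrictor peptide that Ednrb binds, stood at 0 and 164 CPM in members against 333 and 467, at least 3.41-fold and 2.84-fold (2.38–3.42) lower (fitted −2.03 ± 0.40, adjusted p = 7.74e-05). Apln thus stood high in members, and Edn1 in general capillary-gated cells. With DESeq2 Vegfa, Vegfc and Edn1 did not pass.

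Notch and BMP signals set endothelial quiescence. Of 10 Notch genes 9 were tested, with 0 higher, 1 lower (Hey1) and 8 not passed in the edgeR test, and a median of −0.71, beside 1.07% higher and 1.48% lower over all genes (median −0.18). Hey1, a transcriptional target of Notch, stood at 0 and 52.8 CPM in members against 166 and 119.7, while Notch4, an endothelial Notch receptor, stood at 97.5 and 83.98 against 95.1 and 129. Of 16 BMP and TGF-beta genes 16 were tested, with 0 higher, 1 lower (Bmp6) and 15 not passed, and a median of −0.26. Bmp6, a ligand of this pathway, stood at 0 and 152 against 357 and 237 (fitted −1.25 ± 0.37, adjusted p = 0.0374). Acvrl1, the endothelial receptor for circulating BMPs, stood at 1917 and 1281 against 1212 and 908 CPM and did not pass. Hey1 and Bmp6 did not pass with DESeq2.

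Transcription factors carry the identity of endothelial beds. Of 20 on the list 17 were tested, with 3 higher (Tbx2, Tbx3, Meox1), 1 lower (Foxp1) and 13 not passed, and a median of −0.47, beside 1.07% higher and 1.48% lower over all genes (median −0.18). Tbx2, a T-box repressor, stood at 715 and 339.5 CPM in members against 11.9 and 117. Its relative Tbx3 stood at 812 and 877 against 154 and 259, and Meox1, a homeobox factor, at 195 and 124 against 0 and 23.7. These 3 were high in members of both libraries. Tbx2 was 60.2-fold (9.73–2483) and 2.89-fold (2.45–3.42) higher, fitted at 1.97 ± 0.39 (adjusted p = 6.38e-05), with a UMI in 10 of 11 and 79 of 88 members (89.8%; 51.2% thinned in library 2). Tbx2 is also a fibroblast gene and was counted in 62.3% and 76.7% of fibroblast-gated cells. Tbx3 was 5.26-fold (2.59–11.2) and 3.38-fold (3.04–3.77) higher, fitted at 1.72 ± 0.37 (adjusted p = 4.85e-04). Foxf1, the endothelial factor of the lung mesoderm, stood at 455 and 765 against 559 and 731 CPM and did not pass. Foxp1 stood at 195 and 389.9 against 832 and 685 (fitted −1.42 ± 0.38, adjusted p = 0.0122). With DESeq2, Tbx3 passed and Tbx2, Meox1 and Foxp1 did not.

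Genes of the common endothelial program were read in both groups. Of 20 pan-endothelial genes 20 were tested, with 1 higher (Cd34), 3 lower (Sox17, Mmrn2, Clec14a) and 16 not passed, and a median of −0.30, beside 1.07% higher and 1.48% lower over all genes (median −0.18). Summed, these stood at 24699 and 18182 CPM in members and 18526 and 14424 CPM in general capillary-gated cells. Cd34, a sialomucin of the vessel lumen, stood at 877 and 500.3 against 95.1 and 126, 9.23-fold (4.08–23.5) and 3.97-fold (3.42–4.61) higher, fitted at 2.11 ± 0.38 (adjusted p = 6.36e-06). Of 16 junction genes 13 were tested, with 0 higher, 1 lower (Gja4) and 12 not passed in the edgeR test, and a median of −0.13. Of 8 genes of caveolae, the membrane pits of endothelium, 8 were tested and 0 passed with edgeR, with a median of −0.12 and sums of 5849.9 and 6533 CPM in members. Cav1, which forms these pits, stood at 909.98 and 1048 CPM in members and 1093 and 1182 in general capillary-gated cells. Of 18 basement membrane and integrin genes 14 were tested, with 1 higher (Itga3), 2 lower (Itga1, Itga6) and 11 not passed, and a median of −0.59. Itga3 and Itga6 both make laminin receptors. Itga3 stood at 259.99 and 169 against 47.5 and 70.7, and Itga6 at 0 and 75.6 against 273 and 296 CPM. Members were low in Itga6 (fitted −2.38 ± 0.41, adjusted p = 1.85e-06). Itga3 was fitted at 1.24 ± 0.38 (adjusted p = 0.0434) and did not pass without cells that had over 1% of their UMIs in 5 lists of other cell types. With DESeq2 Cd34 passed, and Sox17, Mmrn2, Clec14a, Itga1, Itga3 and Itga6 did not.

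Gas and ion transport was read beyond Car4. Of 15 carbonic anhydrases and ion or water transporters 10 were tested, with 0 higher, 2 lower (among them Car8) and 8 not passed in the edgeR test, beside 1.07% higher and 1.48% lower over all genes. The median was −0.96, or −0.59 with genes at 0 held to their floor, beside −0.18. Aqp1, the water channel of capillaries, stood at 877 and 779.8 CPM in members and 761 and 842 in general capillary-gated cells. Car2, the anhydrase of the cytoplasm, stood at 64.998 and 92.4 against 71.3 and 105, and neither passed.

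Clotting and immune genes were read next. Of 16 genes of haemostasis and vessel tone 13 were tested, with 1 higher, 4 lower (Vwf, Ptgs1, Ptgs2, Entpd1) and 8 not passed, and a median of −0.61, beside 1.07% higher and 1.48% lower over all genes (median −0.18). Entpd1, which breaks down extracellular ATP, stood at 0 and 50.4 against 226 and 141. Klf2, a factor induced by flow, stood at 2307 and 3538 against 2459.9 and 3679 and did not pass. Members were therefore low in Vwf and Entpd1. Of 18 leukocyte adhesion and immune genes 15 were tested, with 1 higher (Icam2), 6 lower and 8 not passed, and a median of −0.48. The lower genes were Cd74, H2-Aa, H2-Ab1 and H2-Eb1 of antigen presentation by MHC class II, the chemokine Cxcl12 and its scavenger Ackr3. Cd74 stood at 32.5 and 208 CPM in members against 689 and 567, and H2-Ab1 at 0 and 95.97 against 629.8 and 252. Cd74 was 2.73-fold (2.33–3.22) lower in library 2, and in library 1, with 1 UMI in members, 21.2-fold (3.66–852) lower. Cxcl12 stood at 0 and 288 against 832 and 490.2, at least 8.53-fold and 1.702-fold (1.48–1.96) lower (fitted −1.64 ± 0.38, adjusted p = 0.00139). H2-D1 and B2m of MHC class I did not pass, at 7149.8 and 3135 and 2242 and 1681 CPM in members. With DESeq2 none of the 6 lower genes passed, and Icam2 and Entpd1 did not pass either.

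Tissue digestion raises stress genes, and these were read with growth. Of 13 immediate early genes 13 were tested, with 0 higher, 3 lower (Atf3, Nr4a1, Btg2) and 10 not passed in the edgeR test, and a median of −0.88, beside 1.07% higher and 1.48% lower over all genes (median −0.18). Nr4a1 did not pass without cells that had over 1% of their UMIs in 5 lists of other cell types. The sums of the 13 genes were 15372 and 12731 CPM in members and 32834 and 13830.4 CPM in general capillary-gated cells, so most of the gap in the sums was in library 1. Atf3, a stress-induced factor, stood at 812 and 372 against 3529 and 589, and Btg2, an antiproliferative gene, at 325 and 629.8 against 1889 and 949.8 CPM. Both were lower in members in each library. Of 10 heat shock genes 10 were tested, with 1 higher (Hspb1), 0 lower and 9 not passed, and a median of 0.03. Hspb1, a small chaperone of the cytoskeleton, stood at 3185 and 1106 against 772 and 359, 4.12-fold (2.98–5.73) and 3.08-fold (2.81–3.38) higher. Atf3, Btg2 and Hspb1 did not pass with DESeq2. Of 12 cell cycle genes 4 were tested and 0 passed with edgeR, with a median of −0.89. Mki67, Top2a and Cdk1, which are made in dividing cells, had 0 UMIs in the members of both libraries.

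Transcripts of other cell types were read for admixture. Of 20 genes of lipid uptake and storage, a function shared with other cells, 18 were tested, with 0 higher, 2 lower (Lpl, Fabp4) and 16 not passed in the edgeR test, and a median of −0.34 (−0.21 with the floor), beside 1.07% higher and 1.48% lower over all genes (median −0.18). Of 12 fibroblast genes outside the gate 12 were tested, with 1 lower (Sparcl1) and 11 not passed and a median of −0.30, and of 10 pericyte and smooth muscle genes 10, with 1 lower (Acta2), 9 not passed and −0.90. Of 10 alveolar type 1 genes 10 were tested, with 1 higher (Hopx), 9 not passed and a median of 0.82. Hopx, a cofactor of transcription, stood at 1852 and 1502 CPM in members against 333 and 525, 5.57-fold (3.48–9.09) and 2.86-fold (2.65–3.096) higher, fitted at 1.64 ± 0.37 (adjusted p = 9.35e-04). In library 1, 8 of the 10 type 1 genes had 0 UMIs in members. Ager, the receptor that marks type 1 epithelium, had 0 UMIs there and 156 in library 2, of which 104 came from 1 cell. Whether type 1 material gave the Hopx UMIs was not tested.

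Alveolar type 2, leukocyte and blood genes were read in the same way. Of 10 alveolar type 2 and club genes 8 were tested, with 7 lower, 1 not passed and a median of −5.13 (−4.52 with the floor), beside 1.48% lower over all genes (median −0.18). Of 12 leukocyte genes 4 were tested, with 1 lower (Lyz2), 3 not passed and −3.92 (−2.30). Of 9 platelet and red cell genes 6 were tested, with 4 lower, 2 not passed and −7.62 (−6.71). Sftpc, a surfactant protein, stood at 259.99 and 70.8 CPM in members against 570.4 and 3204, Sftpa1, another, at 32.5 and 5.998 against 71.3 and 502, and Lyz2, a lysozyme, at 64.998 and 16.8 against 95.1 and 732. In general capillary-gated cells of library 2, 5 barcodes held 97.6% of the Sftpc UMIs and 97.5% of the Lyz2 UMIs, and 1 barcode held 7065 of 7072 UMIs of the globin Hbb-bs. In those of library 1, 5 barcodes held 33.3% of 48 Sftpc UMIs. Without cells that had over 1% of their UMIs in 5 lists of other cell types, all but the fibroblast list, which kept 11 and 87 members and 41 and 321 general capillary-gated cells, Sftpc, Sftpa1, Lyz2 and Hbb-bs were not called, and C1qb of the leukocyte list was lower.

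Members of library 2 ran along a gradient from pure aerocyte counts to mixed ones. A barcode with transcripts of both capillary types can be a cell between the states or a droplet with material of more than 1 cell. Gpihbp1 and Plvap made up at most 10% of the 4 capillary gate genes in 10 of 11 members of library 1 (90.9%, 58.7–99.8%) and in 29 of 88 of library 2 (33.0%, 23.3–43.8%). After thinning to 2000 UMIs the counts were 8 of 10 (80.0%, 44.4–97.5%) and 35 of 74 (47.3%, 35.6–59.3%). The median share of Gpihbp1 and Plvap was 0% and 25.4% before thinning and 0% and 11.1% after it.

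Along that share in library 2, members were deeper and had smaller sums of aerocyte markers. Bins of 0%, over 0 to 10%, over 10 to 30% and over 30 to under 50% held 21, 8, 25 and 34 members with medians of 4637, 5874.5, 9359 and 11593 UMIs. The 16 aerocyte markers summed to 34511, 26349.7, 22495 and 16568 CPM in these bins, and the 16 general capillary markers to 3363, 5004, 6358 and 7945 CPM. Fibin stood at 2036, 2124, 1536 and 1045 CPM and Igfbp7 at 9204, 6720.2, 5382 and 3576 CPM. Cd93 stood at 27.6, 163, 757 and 912 CPM, Cxcl12 at 0, 20.4, 143 and 457 CPM and Ptprb at 82.9, 327, 627 and 1054 CPM. Fibin and Igfbp7 were thus high in the bins where Cd93, Cxcl12 and Ptprb were low. A graded state and mixed barcodes cannot be told apart from these counts.

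**Figure D3:**
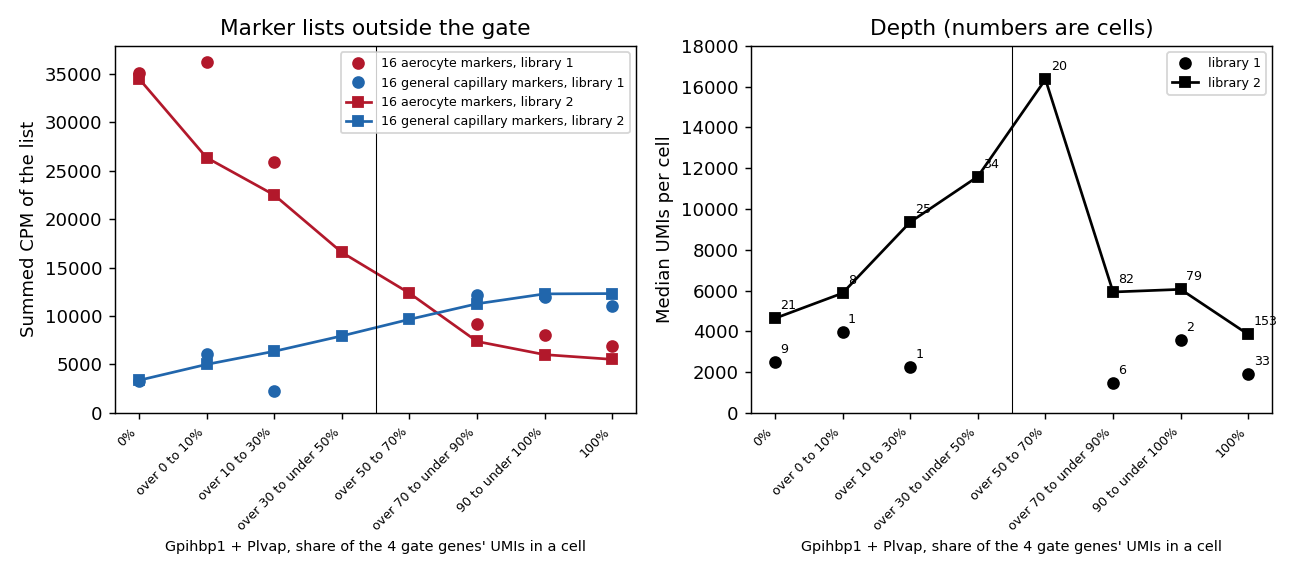
Summed aerocyte and general capillary markers (left) and median depth (right) of the cells of both capillary gates, in bins of the share of Gpihbp1 and Plvap in the 4 capillary gate genes, by library. Members lie left of the vertical line.

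Restricting both capillary gates to at most 10% of the other gene pair left 10 and 29 members and 35 and 232 general capillary-gated cells. Between them 9110 genes were tested, 188 higher (2.06%) and 317 lower (3.48%), with a median log2 difference of −0.24. Of the 16 aerocyte markers 13 were then higher, with a median of 2.96, and of the 16 general capillary markers 13 were lower, with −3.90 (−3.62 with the floor). Both groups were taken from the ends of the share along which these marker sums ran in library 2. A wider gap in these markers was therefore in part set by the choice. Of 9 arterial, venous and lymphatic markers 7 were lower (−10.09, −2.9999 with the floor), with Efnb2, Ephb4 and Vcam1 beside the 4 named above. Of 13 immediate early genes 7 were lower (−1.32), with Fos, Junb, Egr1 and Zfp36 beside Atf3, Nr4a1 and Btg2. Of 13 haemostasis genes 1 was higher and 4 lower (−2.26, −0.44 with the floor). There Plat was lower and Ptgs2 did not pass. The counts higher, lower and not passed were 3, 4 and 13 for pan-endothelial genes (0.03), 2, 7 and 5 for immune genes (−2.11, −1.11 with the floor), 4, 2 and 11 for transcription factors (−1.05, −0.07) and 0, 4 and 8 for fibroblast genes (−2.48, −2.27). Of 5 pericyte genes tested 0 were higher and 3 lower (−11.72, −1.88), and of 5 type 1 genes 2 were higher and 1 lower (−0.16, 1.36). Restricted members had 1507 and 2063 CPM of Fibin, 9394 and 8432 of Igfbp7 and 2138 and 2013 of Kdr, and restricted general capillary-gated cells 26.7 and 16.9, 480.01 and 393, and 293 and 221. Vwf had 0 UMIs in restricted members of both libraries and 800.01 and 727 CPM in the general capillary-gated cells, and Cxcl12 stood at 0 and 6.35 against 800.01 and 577. In Igfbp7, Kdr, Vwf and Cxcl12 the restricted members of the libraries were nearer each other than all members were, and in Fibin they were not. Their share of both restricted gates was 22.2% in library 1 (11.2–37.1%) and 11.1% in library 2 (7.57–15.6%).

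Cells that store retinoid take up retinol and esterify it through Lrat, while Dhrs3 and Cyp26b1 limit retinoic acid. Of 23 genes of retinoid uptake, storage, metabolism and signalling 12 were tested. Against general capillary-gated cells 1 was higher (Dhrs3), 1 lower (Cyp26b1) and 10 not passed, with a median of −0.43 (−0.14 with the floor) beside −0.18, and 1.07% higher and 1.48% lower over all genes. Summed, the 23 genes stood at 1007 and 667 CPM in members, 689 and 638 CPM in general capillary-gated cells and 2704 and 3146 CPM in fibroblast-gated cells. Dhrs3, which reduces retinaldehyde back to retinol, stood at 487 and 113 CPM in members, 47.5 and 40.98 in general capillary-gated and 94.8 and 74.2 in fibroblast-gated cells. Cyp26b1, which degrades retinoic acid, stood at 0 and 14.4, 309 and 68.3, and 1.83 and 1.32 CPM in the same order. Dhrs3 was 10.3-fold (3.27–42.5) and 2.75-fold (2.06–3.68) higher than in general capillary-gated cells, fitted at 1.70 ± 0.40 (adjusted p = 0.00194). Cyp26b1 was at least 3.17-fold and 4.74-fold (2.65–9.36) lower, fitted at −2.91 ± 0.55 (adjusted p = 2.47e-05). Transcripts of the reducing enzyme were thus high in members and those of the degrading enzyme low. In the restricted members Dhrs3 and Cyp26b1 had the same calls, and neither passed with DESeq2.

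Against fibroblast-gated cells, the bulk of the sort, 1 of the 12 retinoid genes was higher in members (Cyp26b1), 5 lower (among them Lrat, Rbp4, Rdh10 and Aldh1a1) and 6 not passed, with a median of −0.64 beside −0.38 over all genes, of which 10.8% were higher and 20.2% lower. Lrat, the enzyme of retinyl ester storage, stood at 97.5 and 15.6 CPM in members and 317 and 141 in fibroblast-gated cells. In members of library 1 its level was no more than the floor of 3 UMIs. Aldh1a1, which makes retinoic acid, stood at 0 and 218 against 711 and 1654. Both were low in members and high in fibroblast-gated cells of the same library. Lrat was 3.25-fold (1.11–15.8) and 9.04-fold (5.28–16.99) lower, fitted at −3.39 ± 0.47 (adjusted p = 7.31e-12). Lrat was counted in 2 of 11 members of library 1 and 9 of 88 of library 2 (10.2%; 1.16% thinned), against 57.9% and 43.2% of fibroblast-gated cells. Rbp4, the carrier of retinol in plasma, had 0 UMIs in members of both libraries and 199 and 105 CPM in fibroblast-gated cells, at least 2.04-fold and at least 29.2-fold lower. In the restricted members Cyp26b1 had no UMI and was not higher than in fibroblast-gated cells, while Lrat, Rbp4 and Aldh1a1 were lower there too and Dhrs3, which did not pass in all members, was higher. Stra6, the retinol channel, had 0 UMIs in members and in fibroblast-gated cells. Lrat was thus low in members beside fibroblast-gated cells, and it did not pass against general capillary-gated cells. Whether free RNA from fibroblasts gave the Lrat UMIs of members was not tested.

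**Figure D4:**
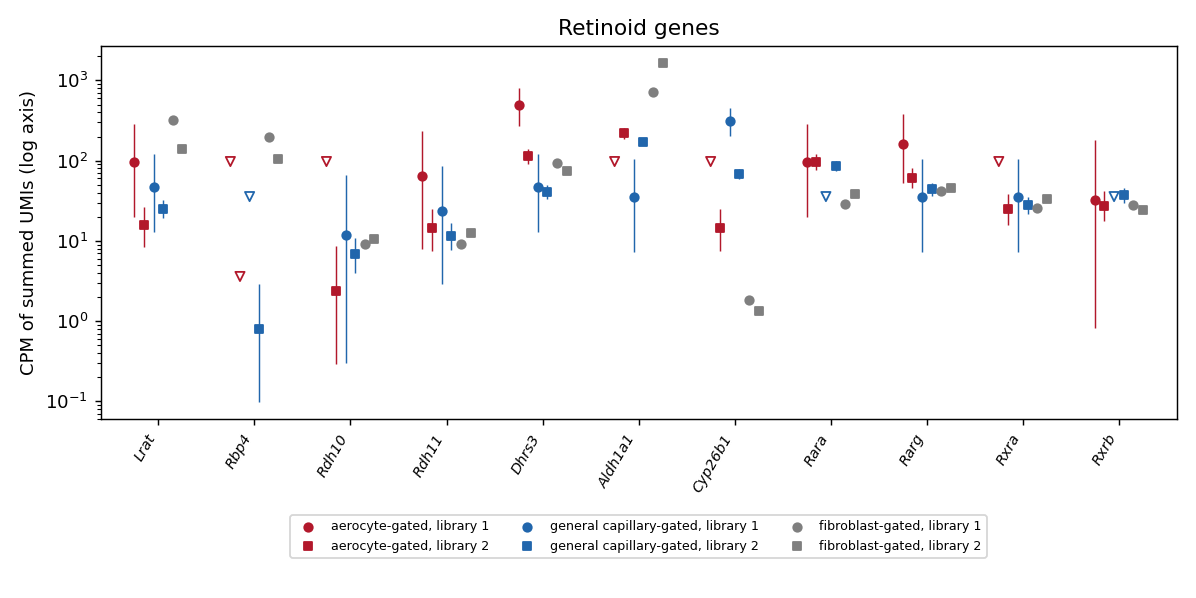
Levels of retinoid genes in members, general capillary-gated and fibroblast-gated cells, by library. Open triangles mark the floor of 3 UMIs where a gene had none.

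The rest of the comparison with fibroblast-gated cells is that of an endothelial with a stromal cell. Of 10402 genes tested 1127 were higher in members (10.8%) and 2098 lower (20.2%). The pan-endothelial genes were higher in 20 of 20 (median 7.72), the general capillary markers in 16 of 16 (7.29) and the aerocyte markers in 13 of 16 with 3 not passed (4.31). The gates asked members for UMIs of 3 other endothelial genes and fibroblast-gated cells for none, so part of these counts was set by the rule. In the restricted members 12 of the 16 general capillary markers were higher (4.43, 4.80 with the floor), Cxcl12 was lower, and Aplnr, Glp1r and Vwf did not pass. Ramp2, part of the adrenomedullin receptor, stood at 5135 and 3860.5 CPM in members against 22.2 and 15.6, and Gata2, a factor of endothelium and blood, at 357 and 383 against 0.0291 and 0.615. Cd36, a fatty acid and lipoprotein receptor, stood at 1365 and 2054 against 7.04 and 7.17, and all 3 were high in members. Fibin was 23.03-fold (16.9–30.6) and 9.69-fold (9.096–10.3) higher, with fibroblast-gated levels of 67.7 and 141 CPM. Igfbp7, at 2844 and 2284 CPM in fibroblast-gated cells, did not pass there (fitted 0.76 ± 0.36), but was higher in the restricted members, where 15 of the 16 aerocyte markers were higher and 1 not passed (4.62). Of the lipid genes 4 of 18 were higher (Cd36, Scarb1, Acvrl1, Pnpla2), 8 lower and 6 not passed, with a median of −1.46 (−0.58 with the floor). Apoe, a lipoprotein of lipid-handling cells, stood at 97.5 and 465 CPM in members against 5891 and 5548, and Plin2, the coat of lipid droplets, at 32.5 and 53.98 against 183 and 173. Both were low in members, as were the lipoprotein receptors Vldlr and Lrp1, while Cd36 and Scarb1 were high.

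By list, the counts higher, lower and not passed against fibroblast-gated cells were 4, 3 and 2 for VEGF (median 1.14), 4, 1 and 1 for apelin and endothelin (5.56), 7, 1 and 1 for Notch (3.59) and 7, 6 and 3 for BMP and TGF-beta (1.01), beside 10.8% higher and 20.2% lower over all genes (−0.38). They were 9, 1 and 3 for junctions (2.35), 4, 0 and 4 for caveolae (1.36), 3, 4 and 7 for basement membrane and integrins (−0.24) and 3, 4 and 3 for ion and water transport (−0.36). Arterial, venous and lymphatic markers gave 6, 3 and 0 (2.67), haemostasis 7, 3 and 3 (1.54), immune genes 10, 2 and 3 (1.34) and transcription factors 11, 4 and 2 (3.91). In the restricted members, beside 8.96% higher and 12.5% lower over all genes (−0.26), the arterial, venous and lymphatic markers gave 2, 3 and 4 (−5.55, 1.55 with the floor), Notch 4, 1 and 4 (2.00, 3.43), haemostasis 4, 2 and 7 (0.11, 1.80) and immune genes 5, 3 and 6 (0.21, 1.36). There VEGF gave 4, 4 and 1 (−3.60, 1.35), BMP and TGF-beta 7, 3 and 6 (0.76), ion and water transport 1, 1 and 5 (0.26, 0.64) and transcription factors 9, 4 and 4 (1.92, 4.18). In all members, immediate early genes gave 0, 10 and 3 (−1.59) and heat shock 0, 5 and 5 (−0.92) in the edgeR test. Cell cycle genes gave 0, 0 and 4 there (−1.12, or −0.18 with the floor). The restricted members gave 0, 9 and 4 (−1.86) for immediate early and 0, 2 and 8 (−0.56) for heat shock genes. Fibroblast genes in all members gave 0, 12 and 0 (−3.97). The gates limited stromal genes in members and required them in fibroblast-gated cells, so part of that split was set by the rule. Pericyte genes gave 4, 2 and 4 (1.09) and alveolar type 1 genes 8, 1 and 1 (3.38). In the restricted members 5 pericyte genes were tested and gave 0, 3 and 2 (−11.75, −0.71 with the floor), and 5 type 1 genes gave 2, 0 and 3 (2.63). Among all members, alveolar type 2 genes gave 0, 6 and 2 (−3.95, −2.13 with the floor) and leukocyte genes 0, 2 and 2 (−3.13, −1.98). Platelet and red cell genes gave 1, 4 and 1 (−4.88, −2.30). Inmt, a methyltransferase of lung fibroblasts, stood at 129.997 and 674 CPM in members against 6994 and 6358, the largest residue of that list in library 2. Jun and Fos, which form a stress-induced factor, stood at 3022 and 3298 and 1755 and 1224 CPM in members against 5121 and 3696 and 6570.2 and 3441, lower in 2 of 2 libraries.

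Aerocyte-gated cells with a stromal share of 0.1% or more were kept apart, 1 in library 1 and 88 in library 2. Those of library 2 had a median of 18886 UMIs and a stromal share of 0.214% (0.105–0.519%). Their 16 aerocyte markers summed to 12792 CPM, against 21067 CPM in the members of that library, and their 12 fibroblast genes outside the gate to 7980.0 against 2074 CPM. Fibin stood at 791 CPM, Kdr at 833 and Aldh1a1 at 821 in these cells, beside 1369, 1296 and 218 in the members of library 2. These deeper barcodes thus had the smaller sum of aerocyte markers and the larger sum of fibroblast genes, and no test was made.

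The most abundant transcripts of members outside mitochondrial and ribosomal genes were Malat1, Gm42418, Igfbp7, Cldn5, Ly6a, Itm2b, H2-D1, Ramp2, Ubb and Actb. Malat1, a nuclear non-coding RNA, stood at 33182 and 20556 CPM and Gm42418, which overlaps ribosomal RNA sequence, at 10399.7 and 30564. Ly6a, a membrane protein of endothelium, stood at 6532 and 4409.9 CPM and Itm2b at 5719.9 and 5097, while Ubb and Actb stood at 6077 and 2835 and 4127 and 4469.9. Of these 10 only Igfbp7 was called against general capillary-gated cells.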

How the data were processed

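The values are UMI counts deposited by the authors as filtered matrices of Cell Ranger 5.0.1 on the mm10 build, and the annotation release was not stated. CPM were computed here from the UMI counts, summed over the cells of a group within each library. Work was done in R 4.3.3 with edgeR 4.0.16 and DESeq2 1.42.0 and in Python 3.11.15 with numpy 2.4.6, scipy 1.17.1, pandas 2.3.3 and matplotlib 3.10.9.

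Cells under 200 genes or over 10% mitochondrial UMIs were dropped. Members were defined by the rule in the text. General capillary-gated cells met the same rule with at least 3 UMIs of Gpihbp1 and Plvap and more of these than of Car4 and Ednrb. Fibroblast-gated cells had no UMI of Cdh5, Pecam1, Egfl7, Epcam or Ptprc and at least 3 UMIs and 0.1% of the 6 stromal genes. The members and the gene lists were chosen with earlier results of these data known. No doublet caller was run, and leaving out deep cells was an alternative.

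Counts of the 3 groups were summed per library and fitted together in edgeR with library as a block, after the filterByExpr filter and with TMM normalisation. A gene passed at an adjusted p under 0.05. The 15 gate genes were not tested. Gene lists got no test of their own, only counts and medians. The code was tested on simulated counts before use. Folds from 0 UMIs were bounded with a floor of 3 UMIs per library. Folds per library were taken from CPM without the TMM factors, so a fitted difference can lie outside them.

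Named genes were the gate genes, the 341 distinct genes of the 26 lists and the 10 most abundant genes. Some genes stood in several lists. Also named were the 12 genes with the largest differences in each direction. These were taken from genes called with at least 50 CPM in the higher group and the same direction in each library. The lists are aerocyte markers, general capillary markers, pan-endothelial, arterial, venous and lymphatic, retinoid, lipid, VEGF, apelin and endothelin, carbonic anhydrases and transport, Notch, BMP and TGF-beta, junctions, basement membrane and integrins, caveolae, haemostasis, immune, transcription factors, immediate early, heat shock, cell cycle and 6 lists of other cell types.

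The alternatives were DESeq2, no filter, no library block, a fit of only the groups compared, stromal limits of 0.05% and 0.2%, other UMI thresholds and no deep cells. Limiting the other gene pair to 10%, leaving out vein and lymphatic genes and leaving out cells with over 1% of UMIs in 5 of those 6 lists (all but the fibroblast list) were added as alternatives, chosen after seeing the data. Gene positions are from GENCODE vM21 and promoters from RefSeq, both on GRCm38.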

Additional observations from a re-analysis of the deposited data

How the results depend on the processing

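The share of members in library 2 was 0.701% with a stromal limit of 0.05%, 1.25% with 0.2%, 1.76% without a limit and 0.290% with Gpihbp1 and Plvap at most 10% of the 4 genes (chosen after seeing the data). The share in both libraries was 0.114% without library 2 and 0.881% without library 1. Against general capillary-gated cells, DESeq2 gave 28 higher and 5 lower, no library block 67 and 79, and the 10% restriction 188 and 317. There 80 were lower with the 0.2% limit, 91 with at least 5 UMIs in both gates and 67 without vein and lymphatic cells (chosen after seeing the data). Lower than in fibroblast-gated cells were 884 with DESeq2, 1324 with only the groups compared, 1135 with the restriction and 1300 without vein and lymphatic cells. Thinning took the library 2 shares of Apln to 25.6%, Tbx2 to 51.2%, Cd93 to 45.3%, Kit to 19.8% and Lrat to 1.16%. The log2 difference of Hbb-bs turned to 0.24 with the 0.2% limit, 1.44 with the restriction, 0.38 without vein and lymphatic cells and 0.65 without cells over 1% of other lists. That of Hba-a1 turned to 0.45, 0.69 and 0.63 with the 0.2% limit, without vein and lymphatic cells and without cells over 1% of other lists, and that of Hba-a2 to 0.49 with the 0.2% limit. Cyp26b1 against fibroblast-gated cells went from 3.11 to −7.37 with the restriction, where it had no UMI in members. The cause was not tested.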

Other observations

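Transcripts of fibroblasts were also counted in cells of other types. The 12 fibroblast genes outside the gate summed to 5216 and 6487 CPM in leukocyte-gated cells of libraries 1 and 2 (272 and 363 cells) and to 2106 and 6035 CPM in epithelial-gated cells (827 and 185 cells), for which no limit was set on stromal genes. Members, which had such a limit, had 617 and 2074 CPM, and the restricted members 315 and 425 CPM. Inmt was the largest of these genes in leukocyte-gated cells, with 2024 and 2243 CPM. Single members of library 1 ranged from 25869.8 to 44541 CPM in the summed aerocyte markers, and those of library 2 from 6628 to 46953 CPM. The summed general capillary markers ranged from 669.8 to 6030.2 CPM and from 713 to 30488 CPM.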
